A study of Homo sapiens with 2 samples.

Results

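The genes described here encode the proteins of the mitochondrial ribosome. They were taken as every protein-coding RefSeq gene of GRCh38.p14 whose symbol begins with MRPL, for the large subunit, or MRPS, for the small subunit. This gave 77 genes, 49 MRPL and 28 MRPS, of 20033 protein-coding genes on chromosomes. NeuroD1 binding had been mapped by ChIP-seq in wild-type IMR-32 cells, an established neuroblastoma cell line with amplified MYCN. In this assay, DNA bound to a protein is recovered with an antibody, and sites with more reads than the local background become peaks. There is 1 library labelled as NeuroD1 ChIP and 1 input library of the same cells without an antibody, and the peaks of the former are described. The labels name a NeuroD1 antibody while the methods of the study describe ChIP-seq with an H3K27Ac antibody. The study also lists NeuroD1 antibodies, and it names CUT&Tag, a separate assay, as the source of its H3K27Ac data. The list was taken as labelled. With 1 library and no replicate, no difference below has a replicate test, and the intervals cover counting error only.

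Mitochondria translate the few proteins encoded by their own genome, which are core subunits of the respiratory chain complexes and of ATP synthase. Their ribosome descends from that of bacteria, and many of its proteins still have a bacterial counterpart. Others were gained in the mitochondrial lineage. All of the proteins are encoded in the nucleus, made in the cytosol and imported, so their genes lie scattered over the chromosomes, usually under promoters that are active in most cell types. NeuroD1 is a neurogenic basic helix-loop-helix transcription factor, and such factors bind E-boxes, short DNA motifs of the form CANNTG, as dimers with E-proteins.

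The upstream sequences of genes with a peak at their start could hold an E-box or none. These sequences do not cover the whole of each peak. The 5 sequences shown first belong to the members with an E-box and the highest fold enrichment, which is the ChIP coverage at the summit of a peak over the local background. Each run holds the 250 bases before a RefSeq start, 5′ to 3′ on the strand of the gene, with each E-box in capitals. They lie at chr17:57850045-57850294 on the minus strand, chr19:17305403-17305652 on the plus strand, chr17:75904885-75905134 on the minus strand, chr1:151763497-151763746 on the minus strand and chr9:135499715-135499964 on the plus strand of GRCh38.p14.
MRPS23: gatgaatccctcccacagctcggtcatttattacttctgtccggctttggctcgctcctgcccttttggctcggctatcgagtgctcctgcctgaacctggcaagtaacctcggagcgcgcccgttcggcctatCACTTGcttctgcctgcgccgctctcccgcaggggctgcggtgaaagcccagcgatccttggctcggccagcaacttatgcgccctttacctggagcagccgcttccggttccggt
MRPL34: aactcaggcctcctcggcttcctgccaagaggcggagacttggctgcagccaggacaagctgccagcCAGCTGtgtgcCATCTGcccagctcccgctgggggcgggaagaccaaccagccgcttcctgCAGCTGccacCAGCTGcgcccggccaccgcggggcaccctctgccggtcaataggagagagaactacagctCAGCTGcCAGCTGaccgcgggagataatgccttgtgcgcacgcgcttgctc
MRPL38: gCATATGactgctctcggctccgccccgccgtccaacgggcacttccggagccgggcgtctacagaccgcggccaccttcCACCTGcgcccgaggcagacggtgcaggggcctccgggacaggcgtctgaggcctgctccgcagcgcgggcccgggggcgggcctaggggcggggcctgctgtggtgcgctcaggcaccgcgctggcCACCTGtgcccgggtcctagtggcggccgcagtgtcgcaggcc
MRPL9: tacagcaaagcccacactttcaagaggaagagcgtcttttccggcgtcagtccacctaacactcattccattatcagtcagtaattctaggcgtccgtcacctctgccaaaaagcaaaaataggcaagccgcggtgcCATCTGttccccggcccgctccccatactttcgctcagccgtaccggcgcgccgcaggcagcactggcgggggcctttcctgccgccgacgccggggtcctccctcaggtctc
MRPS2: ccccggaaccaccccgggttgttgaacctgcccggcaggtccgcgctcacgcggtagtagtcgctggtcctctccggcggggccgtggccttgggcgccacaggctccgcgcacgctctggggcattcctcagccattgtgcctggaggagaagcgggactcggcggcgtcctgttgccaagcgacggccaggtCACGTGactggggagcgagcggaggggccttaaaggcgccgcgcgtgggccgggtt

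MRPL34 held 6 E-boxes, of which 5 read CAGCTG and 1 read CATCTG. MRPS2 held a single CACGTG, the E-box form bound by MYC and MAX family proteins. MRPL3 and MRPL18, shown next, had a summit just upstream of the start and no E-box in the same stretch. In these 2 runs the capitals mark the ETS motif CCGGAAG or its reverse complement CTTCCGG, which is known from promoters of many nuclear genes for mitochondrial proteins. The ETS motif was not limited to runs without an E-box, since it also lay, unmarked, in those of MRPS23 and MRPL38 above. The same stretch of MRPL44 and MRPS7, with peaks of 7.69-fold and 7.26-fold, held neither an E-box nor this motif. The runs of MRPL3 and MRPL18 lie at chr3:131502972-131503221 on the minus strand and chr6:159790217-159790466 on the plus strand.
MRPL3: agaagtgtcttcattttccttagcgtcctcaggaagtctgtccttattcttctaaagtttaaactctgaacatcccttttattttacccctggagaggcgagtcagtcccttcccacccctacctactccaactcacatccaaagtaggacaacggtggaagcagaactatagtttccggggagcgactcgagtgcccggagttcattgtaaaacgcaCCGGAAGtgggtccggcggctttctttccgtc
MRPL18: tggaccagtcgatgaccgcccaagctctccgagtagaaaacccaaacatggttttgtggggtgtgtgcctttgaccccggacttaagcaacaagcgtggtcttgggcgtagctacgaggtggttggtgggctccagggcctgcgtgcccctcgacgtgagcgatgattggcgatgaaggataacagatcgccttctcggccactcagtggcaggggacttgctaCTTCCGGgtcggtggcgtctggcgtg

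NeuroD1 peaks lay in or within 3 kb of 20 of the 77 mitochondrial ribosomal protein genes (26.0%, 95% exact Clopper-Pearson interval 16.6% to 37.2%). Of all 20033 protein-coding genes, 4283 had a peak by the same rule (21.4%). The members are short, with a median length of 8618 bp against 24130 bp over all protein-coding genes, and a longer gene offers a larger target. When the other protein-coding genes were divided into 20 classes of length and averaged in the proportions of the members, 17.4% had a peak, which would correspond to 13.4 of 77 genes. The observed share lay above this value, but its interval included it. Of the 69 members with a promoter sequence, 19 had a peak (27.5%), against 22.2% of other genes of like promoter GC content and 17.3% with length and GC content combined, 2 comparisons added after the data were seen.

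The rule for a peak moved both shares together. With a −log10 q of at least 5, 18 members (23.4%) and 17.2% of all protein-coding genes had a peak, and at a fold enrichment of 5 or more, 19 members (24.7%) and 19.7%. Using the summit in place of the whole peak gave 20 members and 21.3%. In the gene body alone there were 14 members (18.2%), against 16.0%, the 6 lost being MRPL27, MRPL38, MRPL40, MRPL51, MRPS7 and MRPS12. Within 1 kb there were 19 members, against 20.1%, within 5 kb 23 (29.9%), against 22.5%, and within 10 kb 25 (32.5%), against 25.1%. For genes of like length the shares under the same 7 rules ran from 11.7% to 22.0%, below that of the members each time. Unlike the main rule, 3 of these put the like-length share just below the members' interval, with 13.9% against a lower bound of 14.5% at the −log10 q of 5, 18.7% against 20% within 5 kb and 22.0% against 22.2% within 10 kb. When each peak was counted only for its nearest protein-coding gene, 13 members had one. The share of other genes under this last rule was not computed, so the 13 has no background to stand against.

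The gap to other genes of the same length class was widest among the short members. Among members of up to 5 kb, 8 of 22 had a peak (36.4%, exact interval 17.2% to 59.3%), against 329 of the 3175 other genes of that length (10.4%, or 10.5% of all genes of that length). The 8 genes were MRPL9, MRPL40, MRPL41, MRPL51, MRPS2, MRPS7, MRPS12 and MRPS26. Lengths were not matched within this class, where the median was 3290.5 bp for members and 2490 bp for other genes. In the class of 5 to 15 kb, 6 of 30 members (20%) and 17.2% of the other genes had a peak, and above 15 kb the shares were 6 of 25 (24%) and 25.6%. The length classes were set after the data were seen, and each of the 8 peak-bearing short members shared its peak with another protein-coding gene within 3 kb. Of the other genes of up to 5 kb with a peak, 208 of 329 did so (63.2%).

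**Figure D1:**
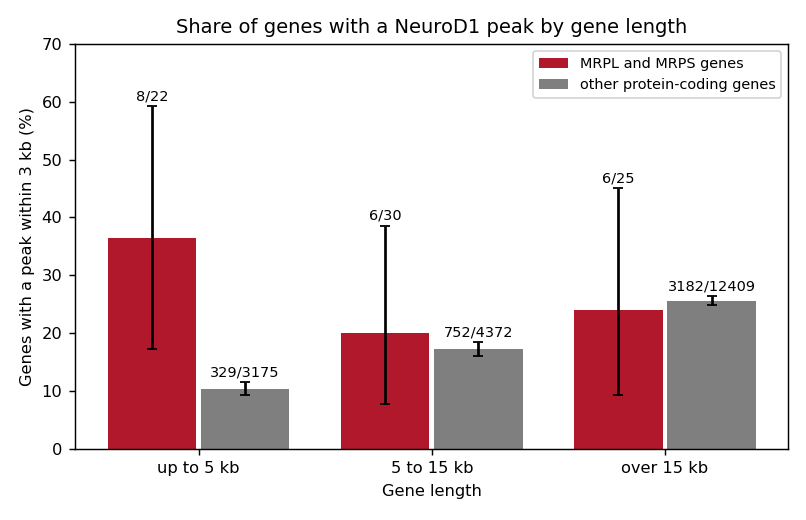
Share of genes with a NeuroD1 peak in the gene or within 3 kb (y axis, %) for mitochondrial ribosomal protein genes (red) and other protein-coding genes (grey) in 3 classes of gene length (x axis), with 95% exact Clopper-Pearson intervals and the counts above the bars. The bars stand apart for genes of up to 5 kb, at 36.4% and 10.4%, and lie close together in the other classes.

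Chromosome 17 held 5 of the 20 genes with a peak, MRPL27, MRPL38, MRPL58, MRPS7 and MRPS23, out of 8 members on that chromosome. It was rich in peaks for all genes, and 33.3% of its 1169 protein-coding genes had one. Without chromosome 17, 15 of 69 members had a peak (21.7%), against 16.5% of genes of like length. For genes of up to 5 kb, the shares without chromosome 17 were 7 of 20 (35.0%) for members and 10.1% for other genes.

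Genes named for each subunit had peaks, with the subunit taken from the symbol. A peak was found at 13 of the 49 MRPL genes (26.5%, exact interval 14.9% to 41.1%) and at 7 of the 28 MRPS genes (25%, 10.7% to 44.9%). By origin, 10 of the 43 genes for proteins with a bacterial counterpart (23.3%, 11.8% to 38.6%) and 10 of the 34 genes for mitochondrion-specific proteins (29.4%, 15.1% to 47.5%) had a peak. The intervals overlapped widely in both comparisons. Each interval also included the 21.4% of all protein-coding genes with a peak. The 17.4% of genes of like length to all members lay inside each as well.

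Together the 20 genes had 27 peaks. Their summits held between 11 and 51 ChIP reads, median 17, and the local background lay between 1.04 and 3 reads. The median was also 17 over all 6183 peaks. For each gene, the fold enrichment of its strongest peak ranged from 4.25 to 16.7 with a median of 7.65, against a median of 7.23 for the strongest peak of every protein-coding gene with one. Hence the peaks at the mitochondrial ribosomal protein genes were of middle height, and only that of MRPS23 was among the upper 5% of all peaks by fold enrichment. Of the 20 genes, 16 had 1 peak, MRPL58 had 2, and MRPL34, MRPL38 and MRPS27 had 3 each.

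MRPS23, which encodes a mitochondrion-specific protein of the small subunit, had the highest peak. It lay on chromosome 17 from 57849983 to 57850375, across the 5′ end of the gene, with its summit 146 bp upstream of the start. It was enriched 16.7-fold (−log10 q 44.6). Its summit was covered by 51 ChIP reads, for which the 95% exact Poisson interval ran from 38 to 67.1, and by fold enrichment it held rank 160 among the 6183. No other protein-coding gene lay within 3 kb of this peak. Its upstream sequence held 1 E-box, CACTTG, centred 32.5 bp from the summit.

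MRPL34, the counterpart of a small bacterial large-subunit protein, had 3 peaks on chromosome 19. The main one, from 17305366 to 17305660, was enriched 13.2-fold (−log10 q 26.0, 32 reads, 21.9 to 45.2), and ABHD8 lay within 3 kb of it. Its summit lay 131 bp upstream of the nearest of 4 RefSeq starts and 11.5 bp from the centre of the nearest of the 6 E-boxes shown above. The second peak, 17303374 to 17303565, was 5.79-fold and also overlapped ABHD8, and the third, 17309417 to 17309615, was 9.95-fold, with 53 of its 199 bases in DDA1. The first peak thus stood higher than both neighbours, although the interval of its reads overlapped that of the third (21 reads, 13 to 32.1).

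Among the other genes of the large subunit with a bacterial counterpart, MRPL21 had the peak of highest fold enrichment, on chromosome 11 from 68903766 to 68903988. This peak was 11.1-fold (−log10 q 16.7) with 22 reads (13.8 to 33.3). The peak overlapped both MRPL21 and IGHMBP2, which encodes a helicase. MRPL3, on chromosome 3 between 131502830 and 131503087, reached 8.20-fold with 16 reads (9.15 to 26.0), and its summit lay 1 bp upstream of the start. At MRPL9, on chromosome 1 from 151763448 to 151763693, the fold enrichment was 7.85 with 31 reads (21.1 to 44.0) over a background of 3 reads, and the whole peak lay in OAZ3, while TDRKH was 2793 bp away. MRPL18, on chromosome 6 between 159790288 and 159790517, reached 7.21-fold, 73 bp upstream of a start and within 3 kb of TCP1, a subunit of the cytosolic chaperonin. The intervals of reads of MRPL3, MRPL18 and MRPL21 overlapped, so these peaks were not ordered by height.

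MRPL27, whose bacterial counterpart lies near the peptidyl transferase centre, was the one gene with its peak far from the start. The peak lay on chromosome 17 from 50376043 to 50376349, within EME1, a subunit of a DNA repair endonuclease, and 2859 bp from MRPL27. Its fold enrichment was 7.60 and its summit lay 2989 bp upstream of the start of MRPL27. It was just inside the limit of 3 kb. Just outside were MRPL24, MRPL46 and MRPL12, with the nearest peak 4020, 4165 and 4451 bp away.

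For the mitochondrion-specific proteins of the large subunit, the peaks at the start varied from strong to near the limit of detection. MRPL40 had a 9.16-fold peak with 18 reads (10.7 to 28.4) on chromosome 22 from 19431699 to 19431898, with its summit 754 bp upstream of the start. Of its 200 bases, 35 overlapped the neighbouring histone chaperone gene HIRA, and the summit lay outside both genes, between their starts. MRPL38 had one of 9.01-fold with 31 reads (21.1 to 44.0) on chromosome 17 from 75904909 to 75905165, with the summit 136 bp upstream of its start. Its other 2 peaks, of 7.64-fold and 5.75-fold, had their summits in TRIM65, beyond the opposite end of MRPL38.

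MRPL48 had a fold enrichment of 7.71 with its summit 235 bp downstream of the start, and was the only member with the nearest summit on the downstream side. MRPL44, which carries a ribonuclease III fold, had 7.69, 50 bp upstream of its start. MRPL51 had 6.78 at a peak 648 bp upstream, within 3 kb of the condensin gene NCAPD2. The reads at these 3 summits were 15, 16 and 17, and their intervals overlapped.

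MRPL58 encodes a peptidyl-tRNA hydrolase that is built into the large subunit and can free stalled ribosomes. It had a peak of 10.3-fold with 28 reads (18.6 to 40.5), which lay 1400 bp outside the gene on chromosome 17 from 75010961 to 75011270. The peak at its start, from 75012488 to 75012686, was only 4.51-fold with 15 reads (8.40 to 24.7). MRPL41, the shortest gene at 677 bp, had the weakest peak, on chromosome 9 from 137551785 to 137551937, at 4.25-fold (−log10 q 2.47) with 12 reads (6.2 to 21) over a background of 2 reads. PNPLA7 and DPH7 also lay within 3 kb of it.

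Apart from MRPS23, the small-subunit genes had peaks of 5.79-fold to 7.26-fold. MRPS7, a protein of the head of the small subunit, had 7.26-fold with 28 reads (18.6 to 40.5) on chromosome 17 from 75261476 to 75261816, in GGA3 and 63 bp from MRPS7. MRPS2 had 7.19-fold with 21 reads (13 to 32.1) on chromosome 9 from 135499837 to 135500022, overlapping PIERCE1, and its summit lay 2.5 bp from the centre of the CACGTG motif shown above. MRPS26 had 6.75-fold with 13 reads, 60 bp upstream of the start, and GNRH2, a gonadotropin-releasing hormone gene, lay 196 bp from the peak. The intervals of these 3 genes overlapped each other.

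MRPS27, a pentatricopeptide repeat protein and the longest of the genes with a peak at 100838 bp, had 3 peaks on chromosome 5 with fold enrichments of 6.56, 7.08 and 6.30. The last of these lay at its start, from 72320239 to 72320384, and overlapped PTCD2, which encodes another mitochondrial pentatricopeptide repeat protein. The other 2 lay 31157 and 11736 bp downstream of the start. MRPS12, the counterpart of the bacterial protein of the decoding centre, had 6.27-fold with 12 reads (6.2 to 21), and its peak on chromosome 19 from 38930637 to 38930932 ended 12 bp before MRPS12. Of its 296 bases, 127, with the summit, overlapped SARS2, the mitochondrial seryl-tRNA synthetase gene, and the others lay between the starts of both genes. MRPS6 had 5.79-fold with 11 reads (5.49 to 19.7) at a peak that also overlapped the inositol transporter gene SLC5A3. These low read numbers did not separate the genes from each other.

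**Figure D2:**
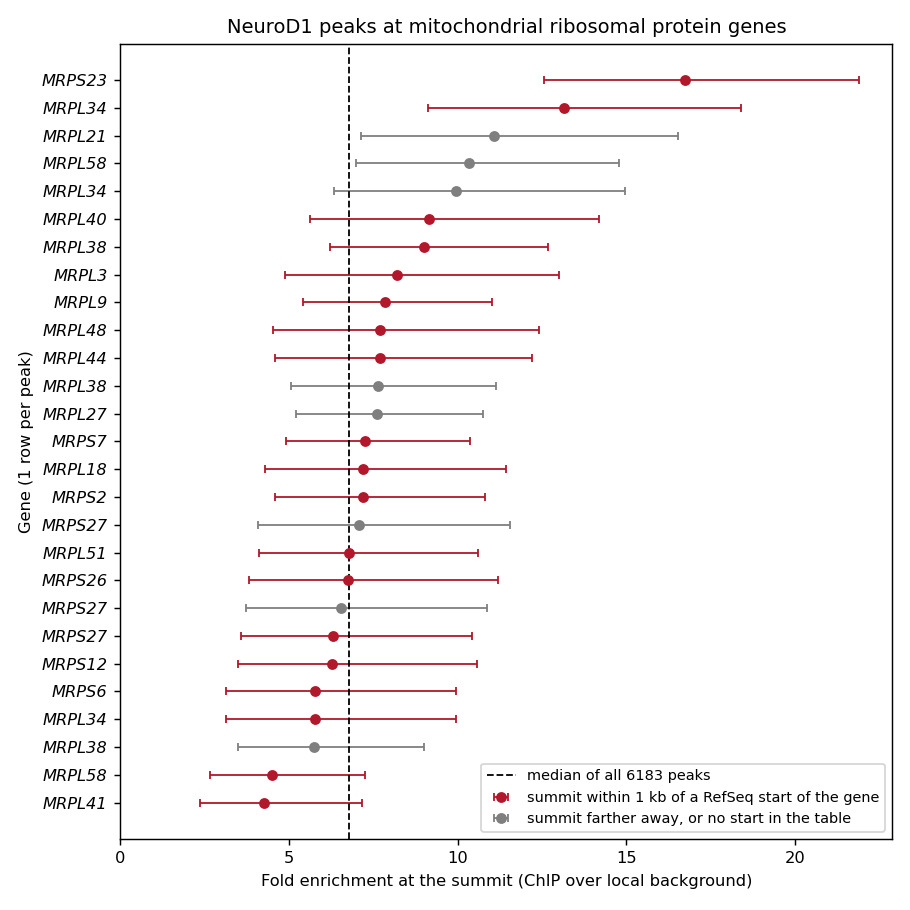
Fold enrichment at the summit (x axis) of each of the 27 NeuroD1 peaks in or within 3 kb of a mitochondrial ribosomal protein gene (y axis, 1 row per peak), with red points for summits within 1 kb of a RefSeq start. Bars are the 95% exact Poisson intervals of the ChIP reads with the background held fixed, and the dashed line is the median of all peaks, 6.79, which only the intervals of MRPS23 at 16.7, MRPL34 at 13.2, MRPL21 at 11.1 and the distal MRPL58 peak at 10.3 leave out.

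The other 57 genes had no peak within 3 kb. Their nearest peak was a median of 89335 bp away, with a range from 4020 to 2282046 bp, and 25 of them had no peak within 100 kb. They were 36 MRPL and 21 MRPS genes. The set included MRPL12, which also binds the mitochondrial RNA polymerase, and MRPS18A and MRPS30, which are named for the small subunit but reside in the large one. It also included the head-to-head pair MRPL46 and MRPS11. The absence of a peak means that none was called at the depth of this library. The distances to the nearest peak were not compared with those of other protein-coding genes.

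Peaks of the mitochondrial ribosomal protein genes lay close to gene starts, mostly on the upstream side. A start was given for 19 of the 20 genes, MRPL21 being the exception. In 18 of the 19, the nearest summit lay within 1 kb of a start (94.7%), and in 17 of these 18 it lay upstream, with a median summit position of −82 bp over the 18. Among the 3498 other protein-coding genes with a peak and a start, 69.4% had a summit within 1 kb, of which 82.3% were upstream, with a median position of −87 bp. Among such genes no longer than the upper quartile of the members, 76.9% had one. So 14 of the 19 summits, including those of MRPL9, MRPL44 and MRPS26, fell from 1 to 200 bp upstream of the start.

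With a summit within 1 kb of a start as the criterion, 18 of the 69 members with a start were bound (26.1%, exact interval 16.3% to 38.1%). Of all 15842 protein-coding genes with a start, 15.4% were. Other genes of like length gave 13.4%, and other genes of like promoter GC content 15.6%, and both lay below the interval of the members. Without chromosome 17 the shares were 14 of 62 (22.6%, 12.9% to 35.0%), and 12.7% for genes of like length. The comparison with like length for this criterion was chosen after the data were seen. Neighbouring gene starts were not taken into account here, and the shares split by them are given below.

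Most of these peaks could not be given to a single gene. In 15 of the 20 genes, a peak also lay in or within 3 kb of another protein-coding gene (75%), against 37.3% of the other protein-coding genes with a peak, and 54.2% of those no longer than the upper quartile of the members. Of the 69 members with a start, 20 had a head-to-head neighbour, that is a protein-coding gene on the opposite strand whose start lay up to 1 kb upstream (29.0%), against 12.2% of other genes. Pairs with a peak included MRPL27 and EME1 with 45 bp between the starts, MRPS2 and PIERCE1 with 96 bp, MRPS27 and PTCD2 with 133 bp, MRPS12 and SARS2 with 181 bp, MRPL18 and TCP1 with 210 bp, and MRPS7 and GGA3 with 273 bp. The peak did not always lie between these starts. That of MRPL27 lay within EME1, and that of MRPL18 lay within MRPL18, 686 bp from TCP1.

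Members with such a neighbour had a peak in 8 of 20 cases (40%) and members without one in 11 of 49 (22.4%). For other protein-coding genes the shares were 31.0% and 20.9%, and 31.1% of all 1946 genes with such a neighbour had a peak. With a summit within 1 kb of a start as the criterion, the members gave 7 of 20 (35.0%) and 11 of 49 (22.4%). Other protein-coding genes gave 26.6% with such a neighbour and 13.8% without. The rule for head-to-head pairs was chosen after the data were seen. Pairs without a peak included MRPL49 with FAU, a cytoplasmic ribosomal protein gene, at 49 bp and MRPL32 with the proteasome gene PSMA2 at 202 bp.

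E-boxes were not more frequent in the promoters of the members than elsewhere. RefSeq promoter windows, from 250 bases before to 50 after a start, were available for 69 members, with 85 windows. CANNTG was present in 52 of the 85 (61.2%), against 65.1% of all 22198 windows of protein-coding genes. The forms CAGNTG and its reverse complement CANCTG were in 38.8% against 47.5%, CAGCTG was in 11.8% against 18%, and CAGATG or CATCTG in 2.35% against 12.2%. These 3 lists are nested in the first, and windows of 1 gene can overlap.

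A summit lay in 15 of the member windows, and 8 of these held CANNTG (53.3%). Over all protein-coding windows with a summit the share was 57.0%, and over those without it was 65.9%. CAGATG or CATCTG was in 2 of the 15 member windows with a summit and in none of the 70 without. These 2 were the windows of MRPL9 and MRPL34. Over all protein-coding windows this form was in 8.57% with a summit and 12.5% without. For the members, CAGNTG was in 5 of the 15 and 28 of the 70, and CAGCTG in 2 and 8. The split for CAGATG or CATCTG rests on 2 windows and was not tested. The E-box nearest to the summit was within 25 bp in 3 of the 15 windows, those of MRPL9, MRPL34 and MRPS2 (20%), against 13.7% of the 2026 other windows with a summit. The 7 windows without an E-box were those of MRPL3, MRPL18, MRPL41, MRPL44, MRPS7, MRPS26 and MRPS27. This says only that these letters were not in the 300 bases.

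Other motifs set the windows of the members apart in number. CCGGAAG or CTTCCGG, the ETS motif, was in 33 of the 85 member windows (38.8%) and in 12.8% of all windows. ATGGCGG or CCGCCAT, the core of the motif of YY1, was in 25 (29.4%) against 6.99%. Both were also present without a peak, since the ETS motif was in 7 of the 15 member windows with a summit (46.7%) and 26 of the 70 without (37.1%), and the YY1 core in 3 (20%) and 22 (31.4%). GCATGC, the core of the NRF1 motif, was in 10.6% of member windows against 7.49%, and in none of the 15 with a summit. CCAAT or ATTGG, the NF-Y box, was in 32.9% against 34.7%, and CACGTG in 10.6% against 8.34%. Median GC content was 63.0% in member windows with a summit and 59.0% in those without, against 68.0% and 61.7% over all windows.

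Other genes of mitochondrial translation were compared by the same rule. The mitochondrial ribosome also contains proteins named otherwise, and 4 of 5 such genes had a peak (80.0%, exact interval 28.4% to 99.5%), against 14.0% of genes of like length. They were GADD45GIP1 with 10.8-fold, DAP3, a GTP-binding protein of the small subunit, with 9.15-fold, AURKAIP1 with 7.21-fold and PTCD3 with 6.12-fold, while CHCHD1 had none. Of 22 mitochondrial aminoacyl-tRNA synthetase genes, 9 had a peak (40.9%, exact interval 20.7% to 63.6%), against 22.8% of genes of like length. The highest were at IARS2 (28.2-fold, 63 reads, 48.4 to 80.6), LARS2 (12-fold) and CARS2 (8.67-fold). SARS2 is counted through the peak that it shares with MRPS12.

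Of 54 genes for translation and ribosome assembly factors, 11 had a peak (20.4%, 10.6% to 33.5%), against 20.7% of genes of like length. They were led by MPV17L2, a ribosome assembly factor, with 11.1-fold, GFM2, the factor that splits the ribosome for recycling, with 9.41-fold, and MTERF3 with 9.15-fold. The nuclear genes for subunits of oxidative phosphorylation had a peak in 16 of 83 cases (19.3%, 11.4% to 29.4%), against 17.4%, with ATP5PD at 11.3-fold, NDUFS7 at 10.6-fold and COX5A at 9.05-fold. The cytoplasmic ribosomal protein genes had one in 18 of 89 (20.2%, 12.4% to 30.1%), against 14.9%, with RPL38 at 11.6-fold, RPS12 at 11.1-fold and RPL23A at 8.48-fold. The intervals of all 5 related lists overlapped that of the MRPL and MRPS genes.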

How the data were processed

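One peak list, from the NeuroD1 ChIP library of IMR-32 cells, was used. The input was not analysed here. The submitters' processing notes name the build hg38, BWA 0.7.17 and MACS2 2.2.7, whereas the peak names carry the label macs3. Neither the control nor the q threshold is given in the sources used here. The values deposited by the authors are the fold enrichment (a ratio of ChIP to background coverage at the summit, with 1 added to each), the −log10 of the p-value and of the q-value there, a score that is the −log10 q multiplied by 10 and cut to a whole number in 6182 of 6183 rows, and a signal column that equals the fold enrichment divided by the peak width. The total depth is unknown.

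ChIP reads and background at each summit were solved from the fold enrichment and −log10 p with the Poisson formula of MACS. The weight of 1 read, 0.980, and the lowest background, 1.04, were read from the steps of the deposited values. For 99.98% of the 6183 peaks, the solution gave back the −log10 p within 0.01. The solver, the assignment of peaks to genes and the like-length share were tested on simulated data.

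Genes and starts came from RefSeq of GRCh38.p14, and promoter windows were found for 69 of 77 members. Exons were not used. The members and lists were chosen with earlier results of these data known. Named are every member with a peak, the genes sharing these peaks, the 3 members with the nearest peak beyond 3 kb and the top 3 genes of each related list. Other genes named as examples were chosen after their values were seen. Alternatives covered a −log10 q or fold enrichment of at least 5, the summit, other distances, other length classes and the nearest gene only. Scripts ran in Python 3.11.15 with scipy 1.17.1, pandas 2.3.3, matplotlib 3.10.9 and numpy 2.4.6.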

Additional observations from a re-analysis of the deposited data

How the results depend on the processing

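Of the 20 members with a peak, MRPL41 and MRPS6 dropped out at a −log10 q of 5, leaving 18, and MRPL41 at 5-fold, leaving 19. Over the distances tried, from the gene body to 10 kb, 14 to 25 members had a peak. When each peak was counted only for the nearest protein-coding gene, 13 members had one, because MRPL21, MRPL27, MRPL40, MRPL51, MRPS2, MRPS7 and MRPS12 share their only peak with a nearer gene. The peaks of MRPL21 and MRPS2 overlap both genes, and the gene end closer to the summit decided. MRPS6 and SLC5A3 start at the same base, so only the order of symbols kept MRPS6. For this rule no number for genes of like length was computed. Under the main rule, where genes can share a peak, the number expected from genes of like length was 13.4 of 77. It was 13.2 with 10 classes, 13.5 with 40, 17.1 with promoter GC content in place of length and 13.3 with both together. With the stricter peak lists it was 10.7 and 12.3. The share of member promoters with an E-box, 61.2%, was 38.8% for CAGNTG, which is contained in CANNTG. The median fold enrichment and the median distance to the start stayed within their intervals under every alternative run for them. Settings without chromosome 17 and those with GC content were chosen after the data were seen. No paired analysis was possible because the only ChIP library is unreplicated. With 11 to 51 reads at these summits, most heights cannot be ranked.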
